A study of Mus musculus with 8 samples.

Results

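The presynaptic vesicle cycle genes are 33 named genes that code for the machinery by which a synaptic vesicle releases its transmitter and is then retrieved: 23 genes of release and 10 of endocytosis. They were chosen by name, with earlier results of these data known. A gene counted as measured when the platform annotation tied at least 1 transcript cluster to that gene alone. A transcript cluster is the set of probes that yields 1 signal on this array. Of the 33, 32 were measured (all 10 endocytosis genes and 22 release genes), among 19938 genes measured in all. Vamp2, the main vesicular SNARE of forebrain synapses, was not measured here because its cluster is shared with Ubr3. Only Unc13a had several clusters (3), and it was represented by the brightest.

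Total RNA of the whole olfactory mucosa was measured at postnatal day 1 in 8 mice of mixed 129 x C57BL/6J background, 1 mouse per array. The 4 knockouts carried OmpCre and 2 floxed Emx2 alleles (OmpCre:Emx2 fl/fl), and the 4 controls were their littermates. Controls 1 to 3 were labelled as carrying OmpCre with 1 floxed allele (OmpCre:Emx2 fl/+), while control 4 was labelled as having both alleles floxed but no Cre (Emx2 fl/fl). OmpCre is a gene-targeted allele that recombines in mature olfactory sensory neurons (OSNs), so Emx2, a homeodomain transcription factor, stays in place in the other cells of the dissected tissue. All mice carried at least 1 floxed Emx2 allele. The comparison asked which mRNAs differ in abundance when OmpCre acts on 2 floxed Emx2 alleles. The paper reports that OmpCre recombined a reporter gene in only part of the cells of the mature OSN layer. Differences below are thus not those of a complete loss of Emx2 from mature OSNs.

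OSNs are glutamatergic neurons whose axons end on cells of the olfactory bulb, and their mRNAs for vesicle proteins are measured here in the cell bodies. At the terminal, vesicles dock at the active zone and are primed by Unc13 and Rim proteins. They fuse through SNARE proteins when calcium binds synaptotagmin. Their membrane is then retrieved by clathrin adaptors, curvature proteins and the GTPase dynamin, which cuts the vesicle neck. In whole mucosa, fewer cells of a type and less RNA per cell cannot be told apart.

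Emx2, the deleted gene, had log2 signals of 10.25, 10.14, 10.34 and 10.14 in knockouts 1 to 4, against 10.83, 10.74, 10.58 and 10.89 in controls 1 to 4. The groups did not overlap, and the difference was -0.55 ± 0.077 (limma SE), a fitted change of -31.6%. The limma p, with Benjamini-Hochberg adjustment over 21789 clusters, was 0.201. Omp, the marker of mature OSNs and the locus of the Cre allele, had signals of 12.76, 12.67, 12.91 and 12.60 in knockouts, against 13.43, 12.72, 12.56 and 13.29 in controls. Control 4, which lacks Cre, and control 1, which is labelled as a Cre carrier, were the high mice for Omp. The other mice labelled as carriers of this Omp-locus allele had 12.56 to 12.91, and whether the label of control 1 is right was not tested.

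Array-wide differences bear on the genes below. Control 2 stood apart on the first principal component (32.87, against -11.83 to 6.11 in the other 7 mice, 32.5% of the variance), and 14 immune cell markers averaged 8.94 to 9.11 in knockouts and 8.97 to 10.12 in controls, with control 2 at the top. The mean of 16 markers of olfactory bulb and other brain neurons was 8.57 to 9.17 in knockouts and 8.55 to 9.05 in controls, with knockout 1 and control 2 at the top. Knockout 1 was the highest of the 8 mice for 7 of these markers and control 2 for 4. The other markers went differently, with knockout 3 highest for Gad2, Sp8 and Pax6, control 1 for Calb1 and control 4 for Calb2. Npy was also on the list of ensheathing glia markers. How far the mean of this list measures brain tissue was not tested. Y-linked signal was high in 1 knockout (knockout 3, 10.72) and 3 controls (controls 2 to 4, 10.53 to 10.63). It was low in knockouts 1, 2 and 4 (7.05 to 7.51). Control 1 (8.09) was counted as low by a cut midway between the highest and lowest mouse. Sex, which the labels do not give, thus appeared unevenly split. Every difference given below within high signal rests on knockout 3 as the only knockout. Every one within low signal rests on control 1 as the only control.

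No transcript cluster passed an adjusted p of 0.05 in limma, vesicle genes included (0 of 21789, 0%). With the unadjusted p, 264 clusters (1.21%) lay under 0.01 and 1126 (5.17%) under 0.05. Beside these shares, 4 of the 32 vesicle cycle genes (12.5%) lay under 0.01 and 7 (21.9%) under 0.05. The genes were chosen with earlier results of these data known, so these shares do not test for an excess. Of the 7, 5 were lower in knockouts (Dnm1, Syn2, Syt4, Syt7 and Syt11), against 2.55% of all clusters, and 2 were higher (Dnm3 and Sv2b), against 2.62%. The groups did not overlap for 4 genes, namely Dnm1, Stx1a and Syt7 (lower) and Sv2b (higher), against 3.1% of all clusters. Of 24 listed markers of mature OSNs, 5 also had p under 0.05 and 2 did not overlap. Of 18 immature OSN markers, 3 had p under 0.05 and 1 did not overlap. In each other marker list, 0 or 1 gene had p under 0.05. In the plot of differences by gene, the 95% intervals of 25 of the 32 genes hold 0, Stx1a among them.

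**Figure D1:**
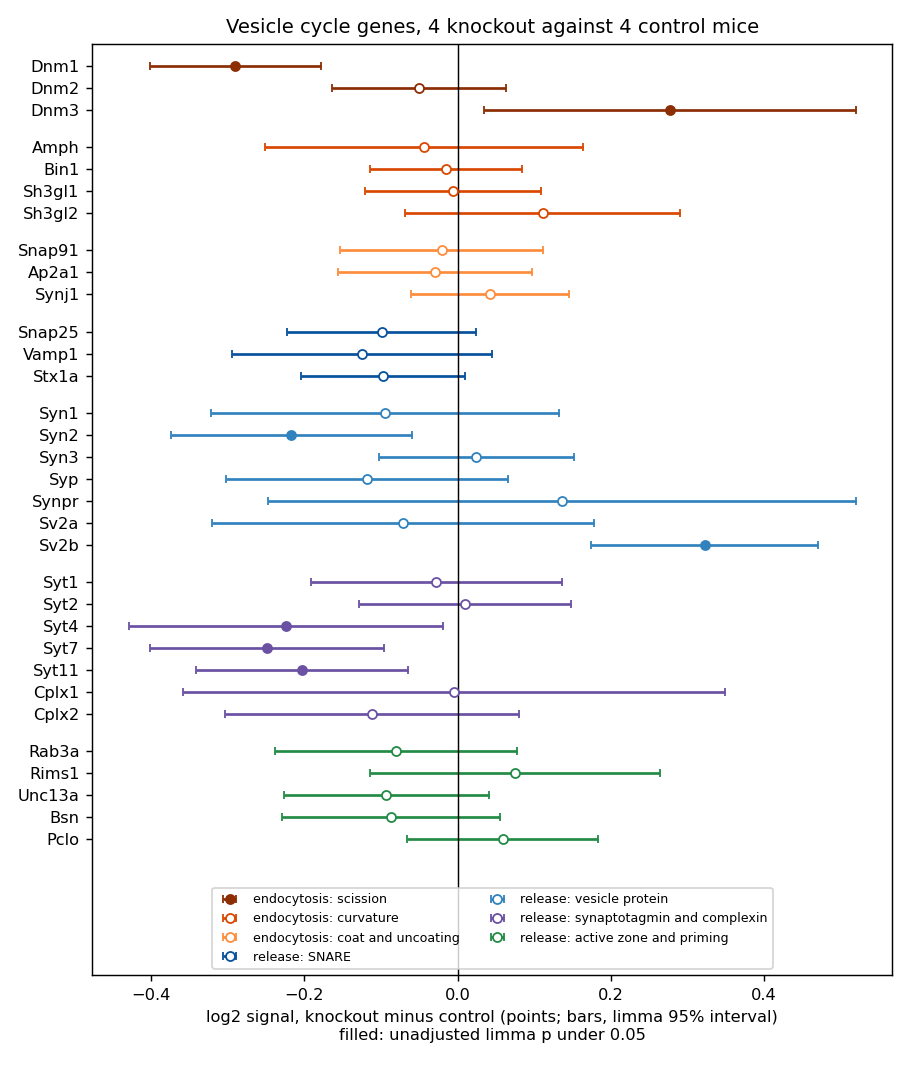
Difference in log2 signal, knockout minus control, of the 32 measured genes ordered by role. Points are limma estimates from 4 mice a group, bars are 95% intervals, and filled points mark an unadjusted p under 0.05. Sv2b (0.32) and Dnm3 (0.28) lie to the right and Dnm1 (-0.29), Syt7 (-0.25), Syt4 (-0.22), Syn2 (-0.22) and Syt11 (-0.20) to the left.

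The promoters of the 2 dynamins that differed in opposite directions and of Sv2b, the gene with the largest positive difference among the 32, are shown because these 3 genes carry the largest differences. The windows run from 250 bases before to 50 bases after the transcription start in RefSeq (mouse build GRCm38.p6), and 27 of the 32 measured genes had 1 or more (37 in all). They are written 5′ to 3′ on the gene's strand, and capitals mark the motif CCCNNGGG, the core bound by Ebf factors.

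Dnm1 (chr2:32353280-32353579, minus strand): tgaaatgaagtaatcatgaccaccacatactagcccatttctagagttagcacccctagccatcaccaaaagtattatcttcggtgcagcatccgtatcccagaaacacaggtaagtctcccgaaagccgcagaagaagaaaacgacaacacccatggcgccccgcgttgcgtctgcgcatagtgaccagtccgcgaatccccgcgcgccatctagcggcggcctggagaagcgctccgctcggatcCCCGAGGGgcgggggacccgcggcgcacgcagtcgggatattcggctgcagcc

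Dnm3 (chr1:162477985-162478284, minus strand): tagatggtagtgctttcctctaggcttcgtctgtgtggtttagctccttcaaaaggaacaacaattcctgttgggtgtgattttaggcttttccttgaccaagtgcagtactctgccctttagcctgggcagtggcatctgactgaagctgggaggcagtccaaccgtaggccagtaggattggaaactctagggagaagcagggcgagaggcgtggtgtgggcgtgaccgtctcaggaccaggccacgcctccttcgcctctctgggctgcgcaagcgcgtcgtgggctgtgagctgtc

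Sv2b (chr7:75309213-75309512, minus strand, the most upstream of its 4 windows): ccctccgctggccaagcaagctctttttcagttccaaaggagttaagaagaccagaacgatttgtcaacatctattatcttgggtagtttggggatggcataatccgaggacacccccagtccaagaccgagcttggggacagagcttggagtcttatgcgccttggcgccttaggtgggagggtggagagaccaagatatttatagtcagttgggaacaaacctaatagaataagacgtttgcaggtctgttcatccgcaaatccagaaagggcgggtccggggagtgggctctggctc

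The Dnm1 window held CCCNNGGG, starting 3 bases before the start, and the Dnm3 and Sv2b windows did not. On both strands, that motif was in 5 of the 37 windows (13.5%; Cplx2, Dnm1, Rims1, Stx1a and Synj1), against 13.7% of 32851 RefSeq promoter windows. The homeodomain core TAATTA, the kind of site that Emx2 and Lhx2 recognise, was in 1 of 37 (2.7%, Sh3gl1), against 5.29% of all windows. The cyclic AMP response motif TGACGT was in 3 of 37 (8.11%; Rab3a, Sh3gl2 and Syn1), against 7.51%. These shares lay near those of all promoters or rested on 1 window, and a match is a description of letters only.

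Of the dynamins, which cut the neck of the budding vesicle, the neuronal Dnm1 was lower and Dnm3 higher in knockouts, while ubiquitous Dnm2 differed little. Dnm1 had log2 signals of 11.44, 11.40, 11.42 and 11.37 in knockouts, against 11.68, 11.66, 11.64 and 11.81 in controls. Every knockout lay below every control, with a gap wider than the spread among knockouts. The difference was -0.29 ± 0.049, a fitted change of -18.2%, with adjusted p = 0.313 (limma). It was -0.25 without control 4, the highest mouse. It was -0.28 within the mice of high and also within those of low Y-linked signal. Each of these splits rests on a single mouse in 1 group, knockout 3 for high and control 1 for low signal.

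Dnm3 had log2 signals of 9.04, 8.73, 8.54 and 8.85 in knockouts, against 8.40, 8.66, 8.42 and 8.57 in controls. Knockout 1 was the highest of all and knockout 3 lay within the control range, so the groups overlapped. The difference was 0.28 ± 0.11 (adjusted p = 0.91, limma). Without knockout 1, the mouse with the highest mean of the brain neuron markers, it was 0.19. With that marker mean as a covariate it was 0.27 ± 0.064. The smaller SE means that part of the spread of Dnm3 between mice went with that mean. Within the mice of high Y-linked signal, the difference was -0.01, against 0.47 within those of low signal, each resting on a single mouse in 1 of the groups. What sex or brain tissue contributed to Dnm3 was not tested beyond these values.

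Dnm2 had signals of 11.26, 11.24, 11.15 and 11.27 in knockouts, against 11.25, 11.37, 11.28 and 11.22 in controls, a difference of -0.05 ± 0.05 (adjusted p = 0.918, limma) with overlapping groups. The dynamins were also set against each other within the same mouse. The log2 signal of Dnm1 minus Dnm3 was 2.400 to 2.886 in knockouts and 3.002 to 3.281 in controls, a shift of -0.57 between the groups. Dnm1 minus Dnm2 shifted by -0.24 and Dnm2 minus Dnm3 by -0.33, also without overlap. Each pair had an exact permutation p of 0.0286 (two-sided), the smallest that 4 against 4 mice allow, and an adjusted p of 0.0571 over the 22 within-family pairs compared, chosen after the values were seen.

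**Figure D2:**
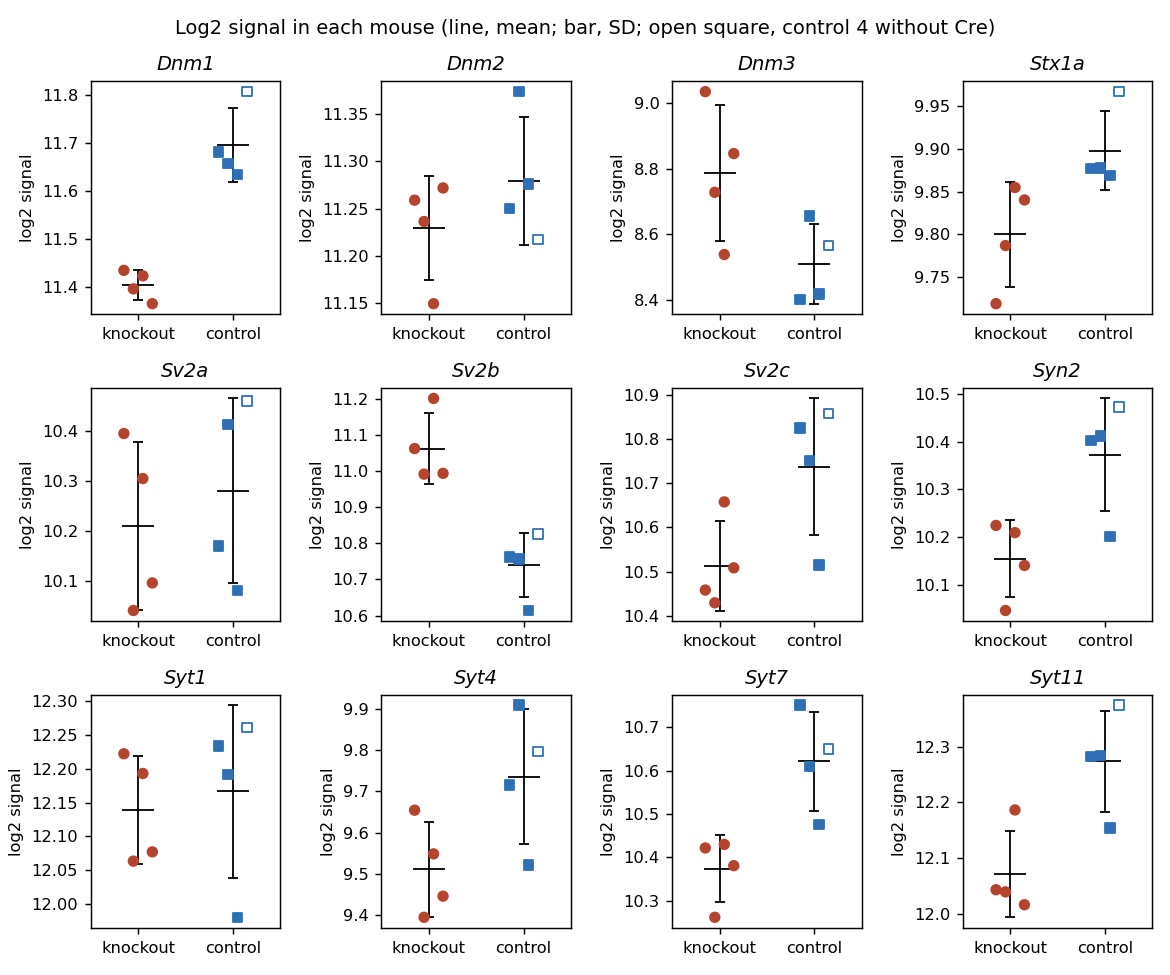
Log2 signal of 12 genes in each mouse, with knockouts on the left and controls on the right of each panel. Lines are means, bars SDs (n = 4), and the open square is control 4, which lacks Cre. Dnm1, Stx1a and Syt7 are lower and Sv2b is higher in every knockout than in every control, and the other panels overlap.

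The curvature proteins differed less. Sh3gl2 (endophilin A1, which bends the membrane and recruits synaptojanin) had the smallest p of this role. Its signals were 10.46, 10.16, 10.27 and 10.19 in knockouts, against 10.12, 10.31, 10.07 and 10.14 in controls, a difference of 0.11 ± 0.079 (adjusted p = 0.91) that was 0.05 without knockout 1. Knockout 1 and control 2, the mice with the highest mean of the brain neuron markers, were the highest mouse of each group. Amph (amphiphysin, which brings dynamin to the neck), Bin1 (its relative) and Sh3gl1 (the widely expressed endophilin) had differences of -0.04, -0.02 and -0.01, each within a 95% interval that held 0 and each turning positive when arrays were scaled to the mature OSN markers.

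Among coat and uncoating genes, Synj1 (synaptojanin 1, a lipid phosphatase that takes part in uncoating) had the smallest p. It had signals of 10.18, 10.21, 10.15 and 10.25 in knockouts, against 10.14, 10.24, 10.11 and 10.12 in controls, a difference of 0.04 ± 0.045 (adjusted p = 0.922) with overlapping groups. Snap91 (the clathrin assembly protein AP180) differed by -0.02 and Ap2a1 (a large subunit of the AP-2 adaptor) by -0.03, and both signs turned under the scaling to mature OSN markers.

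SNAREs pull vesicle and plasma membrane together. Those measured among the release genes (Stx1a, Snap25 and Vamp1) were lower on average, each with a 95% interval that held 0. From the list of other release genes, Snap23 (0.03), Snap29 (0.05) and Vamp4 (0.05) were higher and Snap47 (-0.11) lower, all with overlapping groups. Stx1a (syntaxin 1A of the plasma membrane) had signals of 9.72, 9.79, 9.85 and 9.84 in knockouts, against 9.88, 9.88, 9.87 and 9.97 in controls. The groups did not overlap, although knockout 3 (9.85) and control 3 (9.87) nearly met, and the difference of -0.10 ± 0.047 had an adjusted p of 0.91 (limma) and an unadjusted p over 0.05. Snap25 (the second plasma membrane SNARE) differed by -0.10 (95% interval -0.22 to 0.02) and Vamp1 (a vesicular SNARE) by -0.12 (-0.29 to 0.04).

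The vesicle proteins held both directions. Sv2b, a transporter-like glycoprotein of the vesicle membrane, was higher in every knockout. It had log2 signals of 11.06, 10.99, 11.20 and 10.99 in knockouts, against 10.76, 10.76, 10.61 and 10.83 in controls. The difference was 0.32 ± 0.065, or 25.0% more signal, with adjusted p = 0.44 (limma). It was 0.47 within the mice of high and 0.25 within those of low Y-linked signal, and 0.32 without knockout 1.

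Sv2a, its closest and most widespread paralogue, had signals from 10.04 to 10.39 in knockouts and from 10.08 to 10.46 in controls, a difference of -0.07 (95% interval -0.32 to 0.18). Sv2c, the third of the family, is from the list of other release genes and was named after its values were seen. It had signals of 10.46, 10.43, 10.66 and 10.51 in knockouts, against 10.83, 10.75, 10.52 and 10.86 in controls, a difference of -0.22 ± 0.084 (adjusted p = 0.91, limma). It was -0.05 within the mice of high and -0.36 within those of low Y-linked signal. The log2 signal of Sv2b minus Sv2c was 0.48 to 0.60 in knockouts and -0.06 to 0.10 in controls, a shift of 0.55, and Sv2a minus Sv2b shifted by -0.39. Neither pair overlapped, and both had the smallest exact permutation p (0.0286, adjusted 0.0571), while for Sv2a minus Sv2c the shift was 0.15 (exact p = 0.257).

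The synapsins tether vesicles to each other and to actin. Syn2 had signals of 10.22, 10.05, 10.21 and 10.14 in knockouts, against 10.40, 10.41, 10.20 and 10.47 in controls, a difference of -0.22 ± 0.069 (adjusted p = 0.869, limma). Control 3 alone lay within the knockout range. Syn1 differed by -0.09 (-0.32 to 0.13) and Syn3 by 0.02 (-0.10 to 0.15). Syn2 minus Syn3 shifted by -0.24 without overlap (exact permutation p = 0.0286, the smallest possible, adjusted 0.0571). Syn1 minus Syn2 (0.12, exact permutation p = 0.114) and Syn1 minus Syn3 (-0.12, exact permutation p = 0.143) overlapped.

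Syp (synaptophysin, the abundant tetraspan vesicle protein) differed by -0.12 (-0.30 to 0.07). Its relative Synpr (synaptoporin) had signals of 8.24, 7.71, 7.44 and 7.44 in knockouts, against 7.49, 7.73, 7.48 and 7.59 in controls. The difference of 0.14 rested on knockout 1 and was -0.04 without it.

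The synaptotagmins, whose members 1, 2 and 7 bind calcium and whose members 4 and 11 carry substitutions in calcium-binding residues, split by member. Syt3, Syt5, Syt6, Syt9, Syt10, Syt12, Syt13 and Syt17, from the list of other release genes, were not entered in the pairs below. Their groups overlapped, with differences from -0.11 (Syt17) to 0.15 (Syt10). Syt7, the slow high-affinity sensor, had signals of 10.42, 10.26, 10.43 and 10.38 in knockouts, against 10.75, 10.61, 10.48 and 10.65 in controls. All knockouts lay below all controls, and the difference was -0.25 ± 0.067 (adjusted p = 0.739, limma). Within the mice of high Y-linked signal it was -0.15, and within those of low signal -0.40.

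Syt11 had signals of 12.04, 12.04, 12.19 and 12.02 in knockouts, against 12.28, 12.28, 12.15 and 12.37 in controls. Knockout 3 and control 3 crossed, and the difference was -0.20 ± 0.061 (adjusted p = 0.799, limma). It was -0.08 within the mice of high and -0.25 within those of low Y-linked signal. Syt4 had signals of 9.65, 9.40, 9.55 and 9.45 in knockouts, against 9.72, 9.91, 9.52 and 9.80 in controls, a difference of -0.22 ± 0.09 (adjusted p = 0.91, limma). Control 3 was again the low control.

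Syt1, the fast sensor of most forebrain release, had signals from 12.06 to 12.22 in knockouts and from 11.98 to 12.26 in controls, a difference of -0.03 (-0.19 to 0.14). Syt2, the fast sensor of hindbrain and neuromuscular terminals, differed by 0.01 (-0.13 to 0.15). Relative to Syt1 in the same mouse, Syt4, Syt7 and Syt11 were lower in knockouts. The log2 signal of Syt1 minus Syt7 was 1.70 to 1.80 in knockouts and 1.48 to 1.61 in controls, and the shifts were 0.22 against Syt7, 0.20 against Syt4 and 0.18 against Syt11, without overlap. Syt2 minus Syt7 (0.26) and Syt2 minus Syt11 (0.21) did not overlap either, whereas Syt2 minus Syt4 shifted by 0.23 with overlap (exact permutation p = 0.0571, adjusted 0.105). Among Syt4, Syt7 and Syt11 the 3 pairs shifted by at most 0.05 and overlapped, with exact permutation p from 0.514 to 0.771. Of all 22 pairs, 11 reached the exact p of 0.0286 and 0 an adjusted p of 0.05. Each of the 11 holds a gene that already had a limma p under 0.05. Pairs share genes, so their count is not one of independent results.

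The complexins clamp and assist the SNARE complex. Cplx2 differed by -0.11 (-0.30 to 0.08). Cplx1 had signals of 8.92, 8.44, 8.40 and 8.29 in knockouts, against 8.23, 8.80, 8.51 and 8.52 in controls, with knockout 1 and control 2 again the highest of their groups. Its difference of -0.0046 was -0.14 without knockout 1 and 0.09 without control 2.

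The active zone and priming genes all had intervals that held 0. Unc13a (Munc13-1, the priming factor) had the smallest p, with signals of 10.32, 10.23, 10.30 and 10.17 in knockouts, against 10.24, 10.42, 10.30 and 10.42 in controls, a difference of -0.09 ± 0.059 (adjusted p = 0.91). Its dimmer clusters differed by -0.02 and 0.02. Bsn (bassoon, a scaffold of the active zone) differed by -0.09, Pclo (piccolo, its relative) by 0.06 and Rab3a (the vesicle GTPase) by -0.08. Rims1 (the Rab3 effector of the active zone) differed by 0.07, which was 0.0024 without knockout 1.

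**Figure D3:**
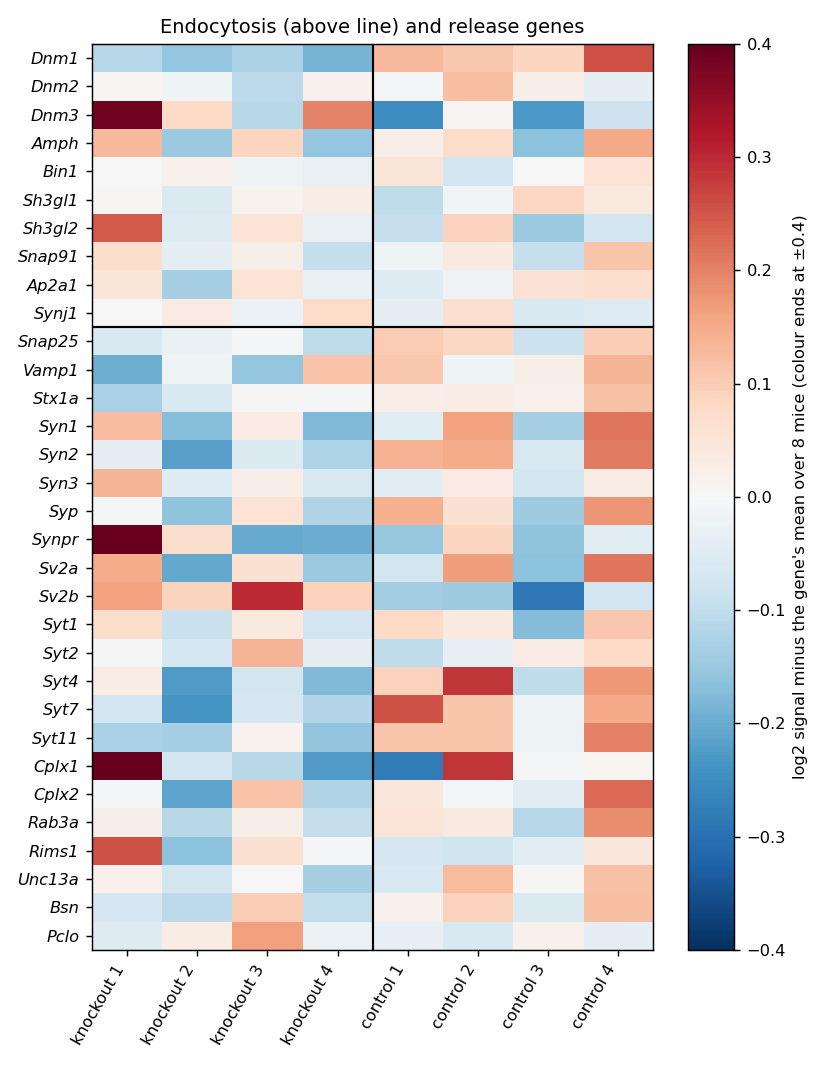
Log2 signal of each gene in each mouse minus the gene's mean over the 8 mice, with knockouts left of the vertical line and controls right of it. Endocytosis genes are above the horizontal line and release genes below it, and colours end at 0.4 on either side. Control 4 was the highest mouse for 16 of 32 genes and knockout 2 the lowest for 9, while Dnm3, Synpr and Cplx1 were darkest in knockout 1.

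Read by list, the release genes had a median difference of -0.09 and the endocytosis genes one of -0.02, beside 0.0024 over all clusters. The mean was lower in knockouts for 16 of 22 release genes (72.7%) and 7 of 10 endocytosis genes, beside 48.6% of all clusters, and with arrays scaled to the mature OSN markers for 14 of 22 and 2 of 10, beside 24.8%. The per-mouse mean of the release genes was 9.96 to 10.12 in knockouts and 9.99 to 10.17 in controls, and that of the endocytosis genes 10.52 to 10.64 in knockouts and 10.52 to 10.61 in controls. Both overlapped. The endocytosis median was 0.0044 without knockout 2, 0.0035 without control 4, -0.03 without control 1 and 0.01 with Y-linked signal as a covariate, so its sign was not stable. The median of the release genes was -0.06 without knockout 2, -0.05 without control 4 and -0.03 with Y-linked signal as a covariate. The genes vary together between mice, so their counts are not independent.

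In absolute size, the median difference of the 32 genes was 0.09, beside 0.05 over all clusters. The median limma SE was 0.066, and the 95% interval reached 0.0995 to 0.384 to either side of the estimate (median 0.151). Differences smaller than that reach could not be told from 0 in these 8 arrays. The plot of differences against mean signal shows the genes beside all clusters, and no comparison with clusters of like brightness was run.

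**Figure D4:**
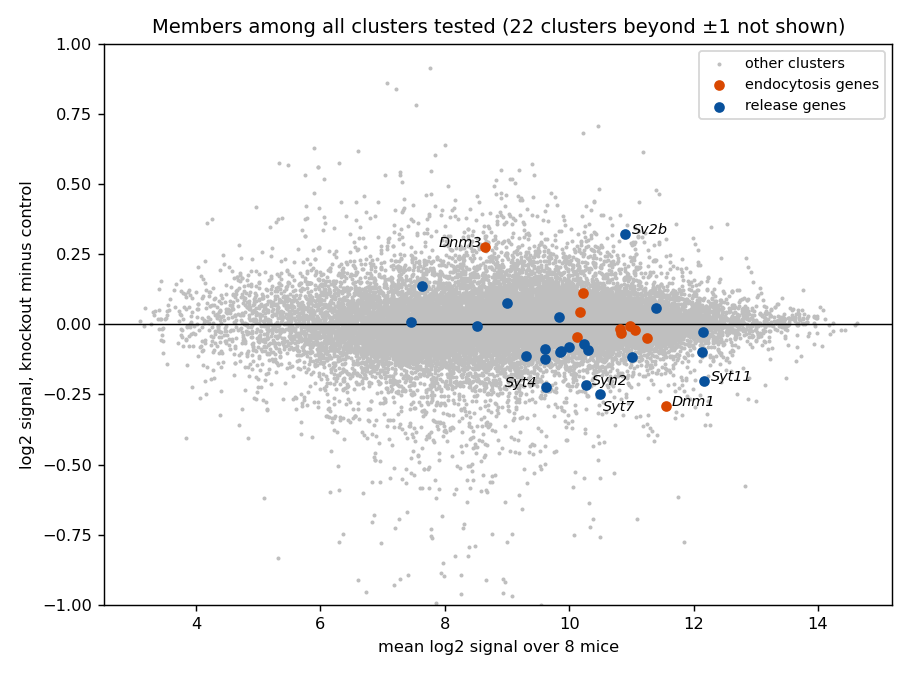
Difference in log2 signal (knockout minus control) against mean log2 signal over 8 mice, for all 21789 clusters tested, with endocytosis genes in orange and release genes in blue. Sv2b (0.32) and Dnm1 (-0.29) lie farther from 0 than the other marked genes, and 22 clusters beyond 1 on either side are not drawn.

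The rest of the pathway was read from lists of other genes with the same functions. The vesicle cycle genes above were chosen with earlier results of these data known, so the shares of these lists are set beside all clusters only. Of 27 other endocytosis genes measured (clathrin chains, adaptor subunits, intersectins and others), 0 had p under 0.05, beside 5.17% of all clusters, and 15 (55.6%) were lower on average, beside 48.6%. The smallest p in each direction belonged to Sh3glb2 (-0.07, limma adjusted p = 0.91) and Itsn1 (0.05, adjusted p = 0.91). Of 43 other release genes, 4 (9.3%) had p under 0.05, 3 of them lower (6.98%, beside 2.55% of all clusters) and 1 higher (2.33%, beside 2.62%), and 26 (60.5%) were lower on average. Of 16 genes that load transmitter into vesicles, 1 (6.25%) had p under 0.05 and 11 (68.8%) were lower on average. The 1 gene was Atp6v1g2, a subunit of the vesicular proton pump (-0.15, limma adjusted p = 0.91). Its unadjusted p was over 0.05 in 10 of 17 alternatives, and its difference was -0.23 within the mice of high and 0.04 within those of low Y-linked signal. The smallest p among the higher ones was that of Atp6v1c1 (0.06, adjusted p = 0.911).

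Rims3, a short Rim protein of the active zone, had signals of 10.22, 9.84, 10.12 and 10.06 in knockouts, against 10.54, 10.44, 10.31 and 10.46 in controls. The groups did not overlap, and the difference was -0.37 ± 0.084 (adjusted p = 0.537, limma). Erc2, an active zone scaffold that binds Rims1, had signals of 9.39, 9.37, 8.94 and 9.46 in knockouts, against 9.03, 8.90, 8.88 and 8.84 in controls. Knockout 3 lay among the controls, and the difference was 0.38 ± 0.11 (adjusted p = 0.794, limma). It was 0.18 with Y-linked signal as a covariate, 0.07 within the mice of high and 0.38 within those of low Y-linked signal.

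Marker lists of the cells in the tissue were set beside these values. Of 24 mature OSN markers, 15 were lower on average, with a per-mouse mean of 11.46 to 11.69 in knockouts and 11.43 to 11.72 in controls, and of 18 immature OSN markers 12 were lower (11.27 to 11.40 in knockouts, 11.32 to 11.46 in controls). All 12 globose basal and dividing cell markers were higher on average (11.24 to 11.40 in knockouts, 10.88 to 11.28 in controls), as were all 10 cartilage and bone markers (9.98 to 10.37 in knockouts, 9.77 to 10.25 in controls). Markers of sustentacular cells, the supporting cells that define this epithelium, averaged 12.50 to 12.63 in knockouts and 12.51 to 12.61 in controls, and muscle markers 7.59 to 7.73 in knockouts and 7.61 to 7.83 in controls. Of 16 brain neuron markers 9 were higher, and of 14 immune markers 11 were lower. Without control 2, 11 of the 12 globose basal and dividing cell markers were higher, by 0.08 on average in place of 0.16. Without it, 12 of the 16 brain neuron markers and 10 of the 14 immune markers were higher. Every one of these ranges overlapped, and their part in the differences of the vesicle genes was not tested beyond the alternatives given.

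**Figure D5:**
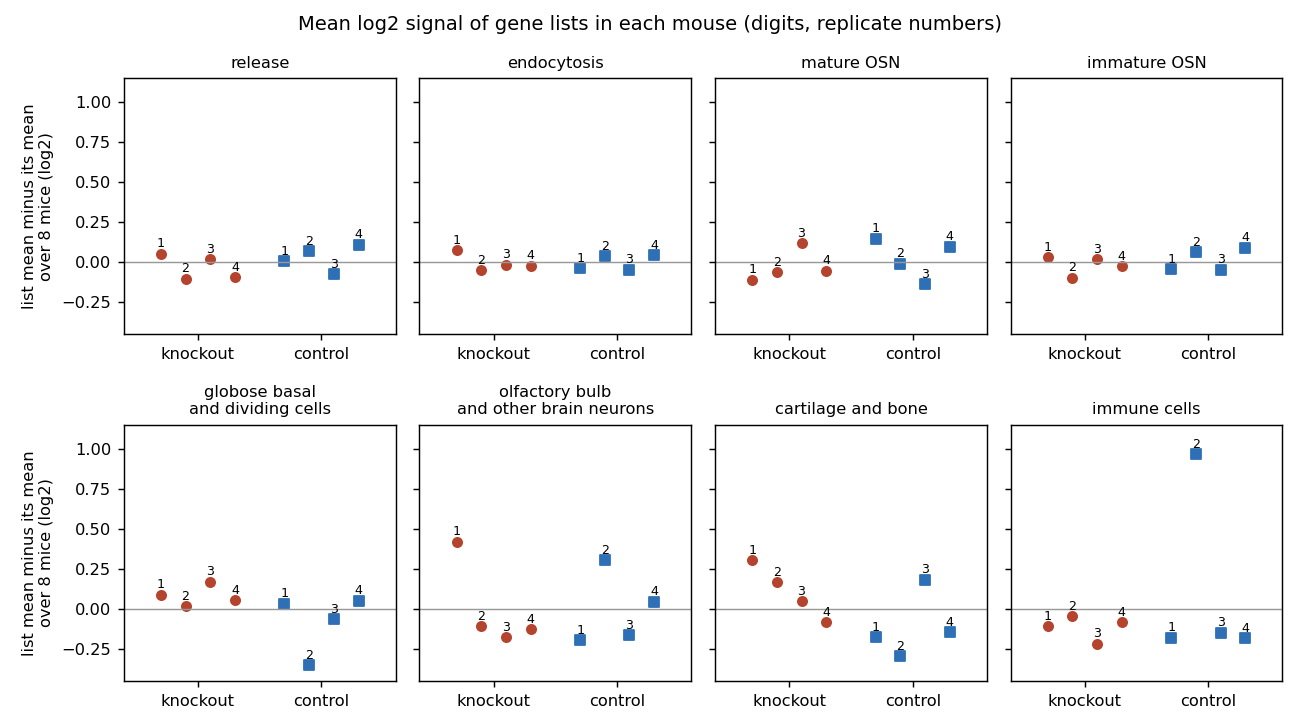
Mean log2 signal of the release and endocytosis genes and of 6 marker lists in each mouse, minus the list's mean over the 8 mice, with knockouts on the left and controls on the right. Digits are replicate numbers. Knockout 1 (0.42) and control 2 (0.31) are the high mice for brain neuron markers, control 2 (0.97) is the high mouse for immune markers, and control 4 (0.11) is the highest for the release genes.

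Across all 17 refitted alternatives, Dnm1, Sv2b and Syt7 had an unadjusted p under 0.05 and the same direction. Dnm3 had a p over 0.05 without knockout 1, without knockout 4, without control 1, without control 3, by the methods' t-test and with Y-linked signal as a covariate. Syt4 had a p over 0.05 in 9 of the 17. Syn2 and Syt11 had a p over 0.05 with that covariate and with scaling to mature OSN markers only. With knockout 1 and control 2 left out together, the same 7 genes had p under 0.05. No vesicle gene passed the adjusted threshold in any alternative.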

How the data were processed

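Total RNA of the olfactory mucosa of 8 mice, 1 per array, was hybridised by the authors to Affymetrix Mouse Gene ST arrays. Each deposited value is a log2 signal of 1 transcript cluster, computed by the authors with Affymetrix Expression Console (named in the submitters' processing notes, with no version). How probes were summarised and arrays normalized is, in the sources used here, not given. Values ran from 2.65 to 14.86 with array medians of 8.637 to 8.676, so they were not transformed or normalized again. The number of arrays limits the precision.

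Genes were named from the platform annotation. Of 35557 clusters, 21789 had exactly 1 symbol and were tested, 1621 had several and 12147 had none in that annotation. The RefSeq gene table of GRCm38.p6 held 21698 of those tested, and no symbol changed. The array values come with no named genome build, so no coordinates of clusters are given. Where several clusters belonged to 1 gene, that of the highest mean over the 8 arrays was taken.

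Knockouts were compared with controls by limma 3.58.1 in R 4.3.3 (lmFit and eBayes, two-sided), with Benjamini-Hochberg adjustment over all tested clusters at 0.05 and counts at unadjusted p under 0.01 and 0.05. Errors given with ± after a difference are limma standard errors with n = 4 mice a group. Differences between family members were tested by exact permutation (two-sided) over the 70 assignments of the 8 mice with scipy 1.17.1. Lists are described by counts and medians, without a test. The fit was tested on simulated data before use.

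Groups came from the genotype and phenotype labels. Replicate numbers follow accession order and pair no mice. Litter and sex are not in the labels and could not enter the design. The genes, lists and tests were chosen with earlier results of these data known. Values of every mouse were given for genes with an unadjusted p under 0.05 or groups that did not overlap, for the gene of smallest p in each role, and for Emx2 and Omp, with a few further genes (Synpr, Cplx1, Dnm2 and Sv2c) added after the values were seen. From the other pathway lists, the gene of smallest p in each direction, any under 0.01, the other synaptotagmins and the other SNAREs were named. The alternatives were quantile normalization, scaling each array to the mean of the 24 measured mature OSN markers (the methods instead use 1 factor per comparison, from a larger published list of mature OSN mRNAs), clusters above the median signal, array weights, the methods' t-test, Y-linked signal as a covariate, leaving out each mouse, and the mean over a gene's clusters. Splitting by Y-linked signal, the brain neuron list as a covariate, leaving out knockout 1 with control 2, and marker lists without control 2 were added after the data were seen.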

Additional observations from a re-analysis of the deposited data

Results flagged for a closer look

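Within a group, 1 mouse lay far from the other 3 for 3 of the vesicle cycle genes and for 1 other gene of the active zone. Syt11 in knockout 3 was 12.19 (the other knockouts 12.02 to 12.04), which brought it into the control range. Erc2 in knockout 3 was 8.94 (the other knockouts 9.37 to 9.46), also within the control range. Snap25 in control 3 was 12.05 (the other controls 12.22 to 12.24), a level inside the knockout range. Stx1a in control 4, the control without Cre, was 9.97 (the other controls 9.87 to 9.88). These 4 came from 82 groups examined by Dixon's gap criterion, of which chance would give about 1 in 20, or 4.1.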

How the results depend on the processing

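No vesicle cycle gene passed an adjusted p of 0.05 in any fitted alternative, and 20 of the 32 kept the sign of their difference in every one of the 17 that could be fitted for them (Dnm3, below the median signal, in 16). Over all clusters, 2 passed with scaling to the mature OSN markers, 2 among clusters above the median signal, 5 with array weights, and 0 to 1 when leaving out each mouse in turn (1 without control 3). With the scaling, the bright clusters and the Y-linked covariate, 166, 163 and 150 clusters had p under 0.01 and 663, 695 and 692 had p under 0.05, and leaving out each mouse gave 135 to 387 and 734 to 1736. The cause was not tested, except that the filter on bright clusters tests fewer. At p under 0.05, higher and lower clusters numbered 571 and 555 (50.7% higher), but 513 and 150 with the scaling (77.4% higher), which moved the median of all clusters to 0.0522. Vesicle genes at p under 0.05 numbered 4 with the scaling and 3 with the Y-linked covariate, and the lower release genes among them 1 under each. The endocytosis median became 0.0317 with the scaling. Signs turned with the scaling for Amph (0.0064), Bin1 (0.0345), Sh3gl1 (0.0444), Snap91 (0.029), Ap2a1 (0.0203), Syt1 (0.0222) and Cplx1 (0.0452), and with the Y-linked covariate for Sh3gl1 (0.0367), Ap2a1 (0.0216), Sv2a (0.0016) and Cplx1 (0.0214). Array weights turned Syt2 (-0.0187), and leaving out knockout 1 with control 2 turned Syn3 (-0.0014) and Rims1 (-0.012). Leaving out each mouse in turn, differences that changed sign ranged from -0.105 to 0.00073 for Amph, -0.0437 to 0.00069 for Bin1, -0.0403 to 0.0217 for Sh3gl1, -0.0548 to 0.0129 for Snap91, -0.053 to 0.0096 for Ap2a1, -0.0169 to 0.0497 for Syn3, -0.0422 to 0.225 for Synpr, -0.0897 to 0.0038 for Syt1, -0.0329 to 0.0388 for Syt2 and -0.141 to 0.0897 for Cplx1. No paired analysis was possible because the labels number no mice across groups and name no litters. Only 4 mice a group, whole tissue and an unknown normalization limit all values.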
